A study of Homo sapiens with 9 samples.

Results

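The transcriptome described here is that of ACC-MESO-1 cells infected with a control short hairpin RNA (control shRNA), taken from the 3 arrays numbered 1 to 3 among the 9 arrays of the series. ACC-MESO-1 is an established line of human mesothelioma of the pleura, grown in RPMI-1640 medium with 10% fetal bovine serum. Its transcripts were hybridized to the Clariom S array, which carries 1 probe set, called a transcript cluster, for most genes. Of 21448 transcript clusters, the 17709 that carry a single gene symbol were kept, 4 of them from the unmapped class of the array's annotation, and these gave 17687 genes. The remaining 6 arrays hold cells with hairpins against LSD1 and are not compared here. Every culture had been infected with a hairpin vector, so what infection adds to the levels below cannot be told apart from the state of the uninfected line. The labels do not say whether the 3 arrays came from separate cultures, so the spread between them may be technical. The line is a single tumour line, and it stands for no other mesothelioma.

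Mesothelial cells line the pleura, the pericardium and the peritoneum. They arise from mesoderm and yet form a sheet with keratins and cell junctions, so they carry epithelial and mesenchymal traits together. Mesothelioma is the tumour of this layer, and pathologists recognise it by mesothelin, calretinin, WT1, podoplanin and keratins, and by the absence of claudin 4, EpCAM and other carcinoma markers. Frequent losses in this tumour hit CDKN2A, often with its neighbour MTAP, as well as NF2 and BAP1.

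Each level is a log2 signal from robust multi-array averaging (RMA), and each was set against the 612 probe sets that the array names as negative controls. The median of these negative controls was 3.948, 4.003 and 4.028 on arrays 1, 2 and 3, and their 95th percentile was 7.22, 7.54 and 7.45. Omitting array 1, as in some checks below, thus raises the mean percentile, and omitting array 2 lowers it. A call that changes on such an omission can reflect this shift as well as the gene's own values. A gene was called above this 95th percentile, or below it, where limma gave a Benjamini-Hochberg adjusted p under 0.05 for its mean difference from the percentile of the same array, with n = 3 arrays. The estimated standard error came out at 0.174 for every cluster, because limma's prior replaced the spread of single genes by a common value. The calls therefore act as limits on the mean level: 7.75 was the lowest mean called above, and 7.06 the highest called below. By this rule 7693 of 17687 genes (43.5%) were above the negative controls, 9136 (51.7%) were below and 858 (4.85%) were neither. The choice of reference decides these counts: 2538 genes were above the 99th percentile and 13053 above the median of the negative controls. A call below does not show that a gene is silent, since a weak transcript or a poor probe set can give a low signal. Signals of different genes depend on their probes, so a rank is a rank of signal and not of transcript number.

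The 3 arrays gave nearly the same picture. Over the named genes, pairs of arrays correlated with r of 0.9951, 0.9952 and 0.9951 across genes, which are not independent replicates. The root mean square difference between 2 arrays was 0.338, 0.333 and 0.338. A total of 7829 genes exceeded the percentile on all 3 arrays, 9248 on none, 320 on 1 and 290 on 2. The median SD over the arrays was 0.110 among genes called above and 0.225 among those called below, and it was 0.0659 in the tenth of genes with the highest signal. Array number limits the precision of each level.

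**Figure D1:**
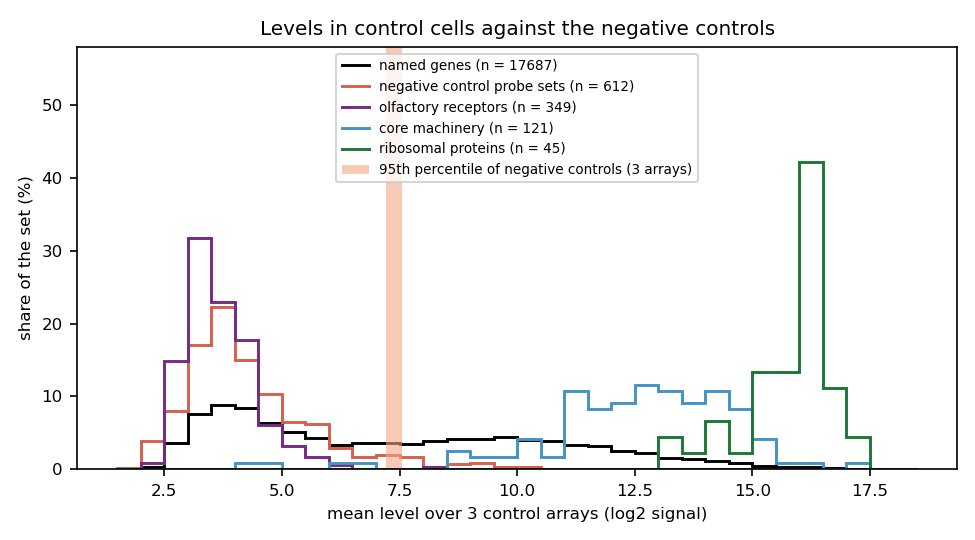
Histograms of the mean level over 3 control arrays (x axis, log2 signal) as the share of each set (y axis, percent): named genes, negative controls, olfactory receptors, core machinery and cytosolic ribosomal proteins. The shaded band runs over the 95th percentiles of the negative controls on the 3 arrays, 7.22 to 7.54; the olfactory receptors peak with the negative controls and the ribosomal proteins lie between 13.2 and 17.4.

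Genes that nearly every growing cell uses lay above the negative controls, and genes of the nose, the hair and the tongue lay below. All 45 cytosolic ribosomal protein genes with a cluster were called above, with means from 13.2 to 17.4. Of 121 genes for the proteasome, translation factors and other core machinery, a list gathered after the values were seen, 117 were above and 4 below. The 4 were PSMB10, a catalytic subunit of the immunoproteasome (6.73), the translation factor EIF4E3 (6.42), and PSMB11 (4.76) and PSMA8 (4.01), proteasome subunits of the thymus and the testis. Proliferation genes were above in 29 of 30 cases, among them PLK1 (15.33), CDC20 (14.41), MKI67 (11.79) and TOP2A (13.01), and CCND2 (5.78) was below. Of 349 olfactory receptor genes 1 was above, OR2W3, with 8.20, 8.46 and 8.55 on the 3 arrays. Of 85 keratin-associated proteins of hair 2 were above, and of 24 taste receptors 0, where the highest mean was 6.33. These shares stand beside 43.5% above and 51.7% below among all named genes.

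The 25 genes of highest signal, from 18.02 to 16.87, held 14 genes of the cytoskeleton, translation and glycolysis. TUBA1B, an alpha tubulin, read 18.01, 18.02 and 18.03 on arrays 1, 2 and 3, and its sister TUBA1C read 17.09, 17.02 and 17.07. IFITM3, a membrane protein that hinders virus entry and is induced by interferon, read 17.95, 17.91 and 17.87. ANXA2, a calcium-dependent membrane linker, read 17.84, 17.86 and 17.87, and the partner it binds, S100A10, read 17.04, 17.10 and 17.04. All of these lay far above the percentile on each array. Their arrays differed by at most 0.085.

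The other leading genes fell into a few kinds. The metal-binding protein MT2A (17.61) and the small heat shock protein HSPB1 (17.51) were at ranks 4 and 5. Glycolysis gave GAPDH (17.51) and ENO1 (17.21), and translation gave EEF1A1 (17.49), EIF5A (17.18), RPL38, RPS23, RPS10 and RPS21. The actin system gave ACTG1 (17.24) and profilin, PFN1 (16.97). PPIA, a prolyl isomerase, S100A11, the galectin LGALS1 and the tetraspanin-like TM4SF1 filled out the group, together with the simple keratins KRT8 and KRT18. MIR4485, at rank 23 with 16.90, is a microRNA gene whose hairpin repeats a stretch of mitochondrial ribosomal RNA, so its probe set may read that RNA.

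Promoter sequence, which the ranking did not use, differed between the classes. For 14250 genes the RefSeq table for GRCh38.p14 held a window of 300 bases, 250 before to 50 after the start. Where a gene had several such windows, the first listed was taken. The median number of CpG dinucleotides was 27 in genes called above, 27 in those called neither and 13 in those called below, against 22 overall. Under 5 CpG were found in 3.73% of the windows of genes above and in 28.9% of those below. The letters TATAAA, searched on both strands, were in 5.41% of windows above and 13.5% below, against 9.41% of all windows. These are descriptions of the classes, and the annotated start need not be the one these cells use.

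Single genes went either way. The windows of 4 genes are printed with CpG in capitals because they show a CpG-rich and a CpG-poor window in each class. TUBA1B and KRT8 were called above with 43 and 2 CpG, and ASS1 and AMHR2 below with 29 and 1. Each is the first window listed for its gene, and another start of the same gene may have a different CpG count. TUBA1B is the gene of highest signal, and AMHR2, the receptor for anti-Müllerian hormone, had the lowest mean of all named genes, 2.06. They lie at chr12:49131346-49131645 and chr12:52926420-52926719 (both minus strand), chr9:130444457-130444756 and chr12:53423605-53423904 (both plus strand), and run 5′ to 3′ on the strand of the gene.
TUBA1B: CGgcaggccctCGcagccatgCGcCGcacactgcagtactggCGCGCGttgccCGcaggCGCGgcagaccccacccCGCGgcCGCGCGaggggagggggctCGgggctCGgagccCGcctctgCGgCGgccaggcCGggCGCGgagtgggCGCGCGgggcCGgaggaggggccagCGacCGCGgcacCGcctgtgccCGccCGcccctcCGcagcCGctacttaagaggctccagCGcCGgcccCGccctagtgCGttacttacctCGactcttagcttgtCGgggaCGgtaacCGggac
KRT8: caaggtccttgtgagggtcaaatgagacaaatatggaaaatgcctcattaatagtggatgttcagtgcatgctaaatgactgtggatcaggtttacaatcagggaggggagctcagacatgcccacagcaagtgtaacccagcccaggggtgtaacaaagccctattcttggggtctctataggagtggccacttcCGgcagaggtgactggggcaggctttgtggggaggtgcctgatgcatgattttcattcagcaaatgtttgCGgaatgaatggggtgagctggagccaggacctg
ASS1: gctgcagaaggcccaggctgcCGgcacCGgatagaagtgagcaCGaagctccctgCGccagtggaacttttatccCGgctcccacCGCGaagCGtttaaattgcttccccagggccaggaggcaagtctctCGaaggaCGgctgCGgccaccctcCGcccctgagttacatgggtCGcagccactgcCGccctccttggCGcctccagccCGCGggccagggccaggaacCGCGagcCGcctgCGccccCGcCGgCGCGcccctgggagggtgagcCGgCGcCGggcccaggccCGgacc
AMHR2: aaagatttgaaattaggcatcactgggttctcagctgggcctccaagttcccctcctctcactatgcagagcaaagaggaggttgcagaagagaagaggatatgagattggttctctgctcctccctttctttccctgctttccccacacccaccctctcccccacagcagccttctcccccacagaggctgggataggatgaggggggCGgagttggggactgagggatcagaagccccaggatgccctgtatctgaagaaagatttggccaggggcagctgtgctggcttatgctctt

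The lineage genes showed a mixed picture. Mesothelin, the simple keratins KRT8, KRT18 and KRT7 and a broad mesenchymal set lay above the negative controls. The simple keratin KRT19 and most other mesothelial and epithelial markers lay below. Over all lineage lists 40 of 131 genes (30.5%) were above and 85 (64.9%) below. Of 27 mesothelial markers 6 were above, 20 below and 1 neither, a smaller share above than the 43.5% of all named genes. That the line is mesothelial is taken from its description and not from these markers, most of which were below.

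MSLN encodes mesothelin, the surface glycoprotein of mesothelium, and read 12.01, 11.91 and 12.06 on arrays 1, 2 and 3, a mean of 11.99 ± 0.076 (SD), n = 3. HEG1, a mucin-like membrane protein recognised by a mesothelioma antibody, read 10.18, 9.90 and 9.94. EFEMP1, the secreted matrix protein fibulin-3, read 13.30, 13.47 and 13.32. All arrays lay above the percentile for these genes. GATA4, a factor of the heart and gut, read 9.86, 10.07 and 9.94, TBX18, a factor of the epicardium, read 8.70, 8.29 and 8.41, and ANXA8 had a mean of 11.26 ± 0.13 (SD), n = 3.

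Several markers used in diagnosis did not reach the negative control percentile. WT1, a zinc finger factor of the embryonic coelomic lining, read 7.17, 6.57 and 7.27, and its mean lay 0.40 below the percentile (limma adjusted p = 0.0219). Without array 2 the difference was -0.11 (limma adjusted p = 0.596, range over omissions of 1 array 0.0158 to 0.596), and against the 90th percentile WT1 was above. CALB2, calretinin, read 6.43, 5.99 and 5.89. UPK3B, a uroplakin of mesothelium, read 6.75, 6.09 and 5.96. Array 1 was the highest for both CALB2 and UPK3B, and no array of either crossed the percentile. PDPN, podoplanin, read 7.30, 7.25 and 7.21, with array 1 just over the percentile and the others under it, and was neither (limma adjusted p = 0.392).

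Lower still were BNC1, a basonuclin of mesothelium and skin, at 5.91, 5.09 and 5.60, and MUC16, the mucin that binds mesothelin and carries the CA125 antigen, at 3.52, 3.81 and 4.26. The lowest means of the list belonged to GPM6A (2.49), a membrane glycoprotein, THBD (3.19), thrombomodulin, and UPK1B (3.59), a second uroplakin. These 3 means lie under the median of the negative controls.

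**Figure D2:**
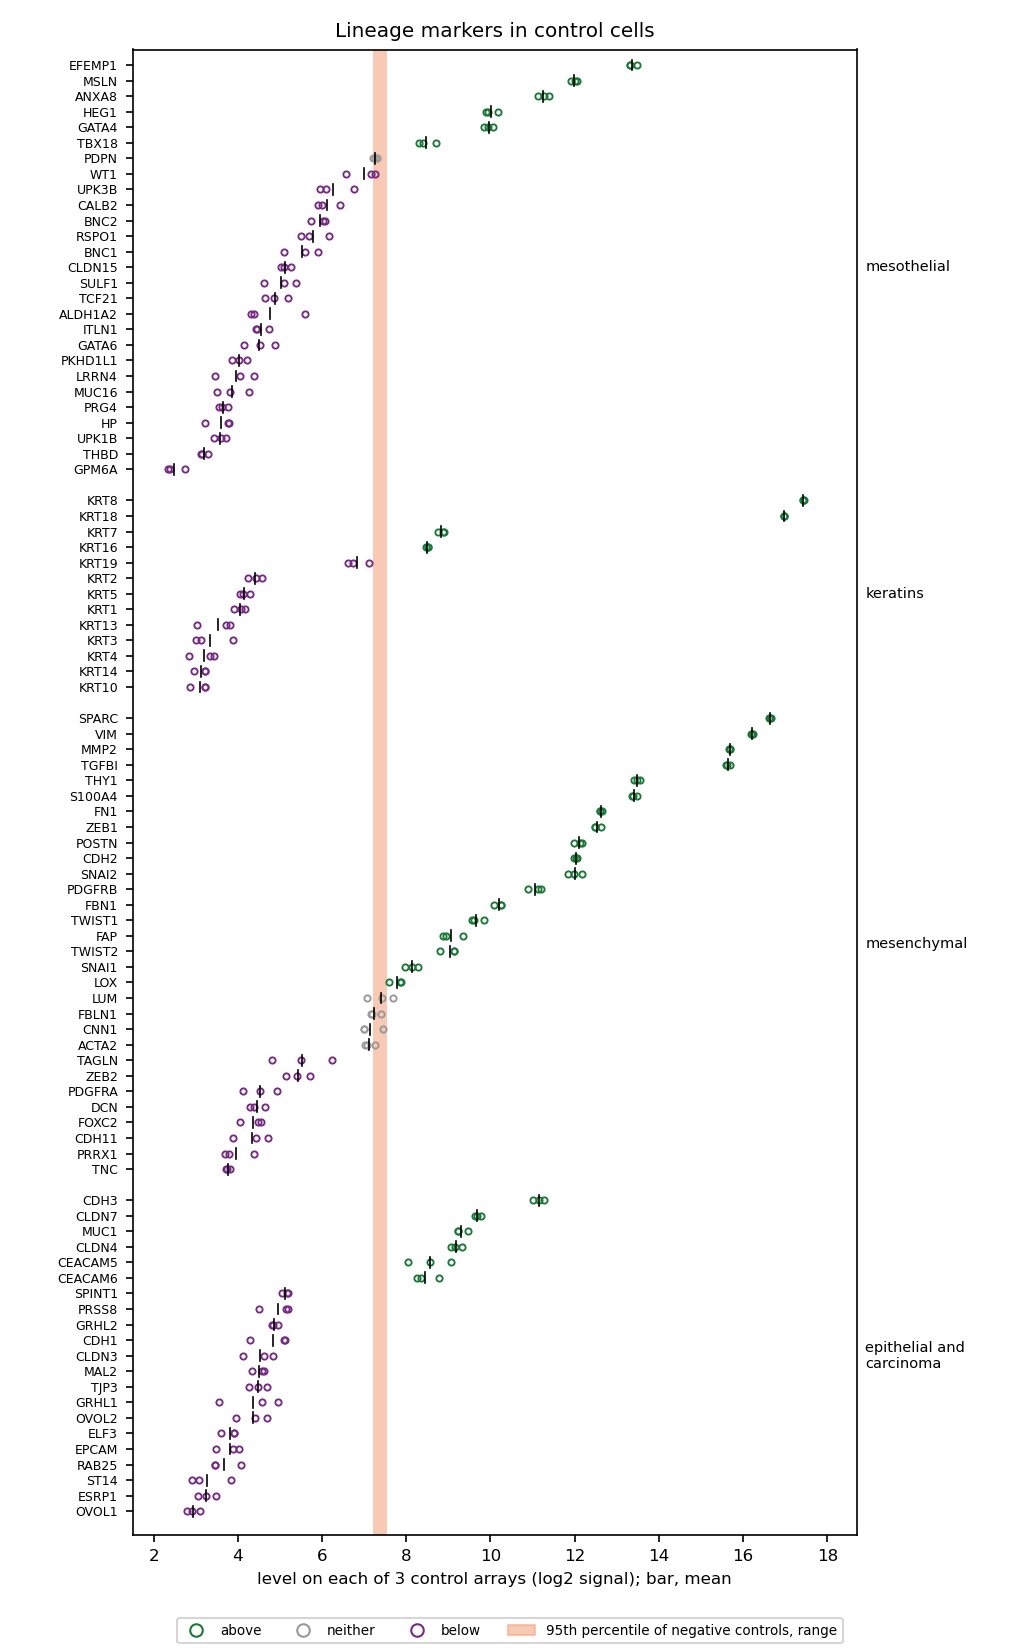
Level on each of 3 control arrays (x axis, log2 signal; circles, arrays; bars, means) for mesothelial, keratin, mesenchymal and epithelial markers (y axis, genes). Colour gives the call and the shaded band the 95th percentiles of the negative controls, 7.22 to 7.54; KRT8 and KRT18 lie at about 17 while most mesothelial and epithelial markers lie left of the band.

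The keratins were divided. KRT8 and KRT18, partners that build the filaments of simple epithelia, read 17.42, 17.42 and 17.44 and 16.96, 16.98 and 16.98 on arrays 1, 2 and 3, at ranks 8 and 20 of 17687. KRT7, another simple keratin, read 8.87, 8.75 and 8.90, and KRT16, a keratin of stressed skin, had a mean of 8.50 ± 0.036 (SD), n = 3. These 4 were the ones above among 13 keratins, and 9 were below. KRT19 read 6.74, 6.62 and 7.10 and lay under the percentile on all 3 arrays, but without array 2 the call was lost (limma adjusted p = 0.0522, 0.00417 to 0.0522 over omissions) and against the 90th percentile it was above. KRT5, a basal keratin that pathologists use for mesothelioma, had a mean of 4.16 ± 0.11 (SD), n = 3. The keratins of stratified layers KRT10, KRT14 and KRT4 had means between 3.10 and 3.20.

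Epithelial and carcinoma markers were below in 15 of 21 cases. CDH1, E-cadherin, the adhesion molecule of epithelial sheets, read 4.28, 5.13 and 5.10. EPCAM, a surface protein of most carcinomas, read 3.89, 4.03 and 3.49, and GRHL2, a factor that keeps the epithelial state, had a mean of 4.86 ± 0.082 (SD), n = 3. No array of these genes came near the percentile. The 6 above were CDH3, P-cadherin (11.15), the claudins CLDN7 (9.69) and CLDN4 (9.18), the mucin MUC1 (9.30), and the related CEACAM5 (8.56) and CEACAM6 (8.45). CLDN4 read 9.06, 9.16 and 9.32, so this carcinoma marker was above on every array. CEACAM5 read 8.56, 8.05 and 9.06, one of the widest ranges between arrays among genes above on all 3, and array 2 was its lowest.

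Lung epithelial markers were below in 15 of 17 cases. NKX2-1, the factor of lung and thyroid, had a mean of 5.01, the surfactant genes SFTPB and SFTPC had 3.99 and 3.65, and SCGB1A1 of club cells had 3.33. The exceptions were LAMP3, a lysosomal membrane protein of type II cells and dendritic cells (8.37), and the lipid transporter ABCA3 (7.77), the latter close above the limit of 7.75. The call of ABCA3 was lost without array 2 (limma adjusted p = 0.11) and without array 3 (0.163), against 0.019 without array 1.

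Mesenchymal genes were above in 18 of 30 cases (60.0%), below in 8 and neither in 4. VIM, the intermediate filament of mesenchymal cells, read 16.22, 16.23 and 16.20 at rank 69. SPARC, a collagen-binding matrix protein, had a mean of 16.64 ± 0.022 (SD), and MMP2, the gelatinase, of 15.68 ± 0.018 (SD), n = 3 each. CDH2, N-cadherin, read 12.03, 11.99 and 12.04, nearly equal on the 3 arrays. The transcription factors of the mesenchymal state were divided: ZEB1 (12.53), TWIST1 (9.67), TWIST2 (9.03) and SNAI1 (8.13) were above, and ZEB2 (5.42), FOXC2 (4.36) and PRRX1 (3.95) below. SNAI2, another such factor, read 11.84, 11.98 and 12.18 and was above. TGFBI (15.63), THY1 (13.47), FN1 (12.62) and PDGFRB (11.07) were above.

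Other members of the mesenchymal list were called neither or below. ACTA2, smooth muscle actin, had a mean of 7.11 ± 0.12 (SD) and CNN1, calponin, of 7.15 ± 0.26 (SD), n = 3, neither told apart from the percentile. Without array 1, which had the lowest percentile, both were called below (limma adjusted p = 0.0483 for ACTA2 and 0.00781 for CNN1). The reference is higher without that array. TAGLN read 4.82, 6.24 and 5.51, which spans 1.42 between arrays and stays below. DCN (4.45), CDH11 (4.35) and TNC (3.76) were below.

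HOX genes, which record position along the body, were above in few cases. HOXB2 (10.32), HOXB7 (9.11), HOXC10 (9.91) and HOXC13 (8.20) were above, HOXC9 was neither (7.24), or below without array 1 (limma adjusted p = 0.0217), and all 8 HOXD genes with a cluster were below, with a highest mean of 5.90 for HOXD12. Of the HOXA group only HOXA2 had a named cluster, and it was below (4.12).

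Markers of other cell types were below almost throughout, with 5 of 104 genes (4.81%) above and 98 (94.2%) below. Among all named genes 43.5% were above and 51.7% below. Of 22 leucocyte genes 1 was above, and the defining markers were below: CD45, encoded by PTPRC, had a mean of 4.26, CD3E 4.94, CD14 5.66 and SPI1 6.55. Endothelial markers gave 3.76 for PECAM1, 3.51 for CDH5 and 5.41 for VWF. Blood, muscle and nerve gave 4.64 for HBB, 6.66 for GATA1, 2.84 for MYOD1, 5.52 for DES, 6.38 for SOX10, 5.34 for SYP and 4.42 for GFAP. Liver, gut and kidney markers were all below, with 5.14 for ALB, 5.58 for CDX2 and 4.64 for PAX8. NANOG (3.22) and SOX2 (4.48) of pluripotent cells were below as well. In RNA from a whole culture, few cells of a type and little RNA per cell cannot be told apart.

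Exceptions to this were 5 single genes, each in a list whose defining markers were below. ACTA1, the actin of skeletal muscle, read 11.67, 11.79 and 11.77, while MYOD1 and DES were below. MITF, the melanocyte factor that also serves other tissues, had a mean of 9.57 ± 0.10 (SD), n = 3. EGFL7 of endothelium read 9.42, 9.70 and 9.18, ZFP42 of pluripotent cells read 9.15, 9.71 and 9.30, and CSF1R, the receptor of macrophage growth factor, read 7.95, 7.997 and 7.92. All lay above the percentile on each array, CSF1R by the smallest margin. SALL4 was neither (7.40).

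The shares of the main lists can be read side by side in the bar plot. The lists for the citric acid cycle (84.6%), the respiratory chain (91.4%), cholesterol synthesis (90.5%), nucleotide synthesis and salvage (85.3%) and interferon-stimulated genes (92.7%) had larger shares above than the 43.5% of all named genes, and chemokines, interleukins, claudins, collagens and cytochrome P450 enzymes had smaller ones. No list was tested, and each was drawn up with results of these data already known.

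**Figure D3:**
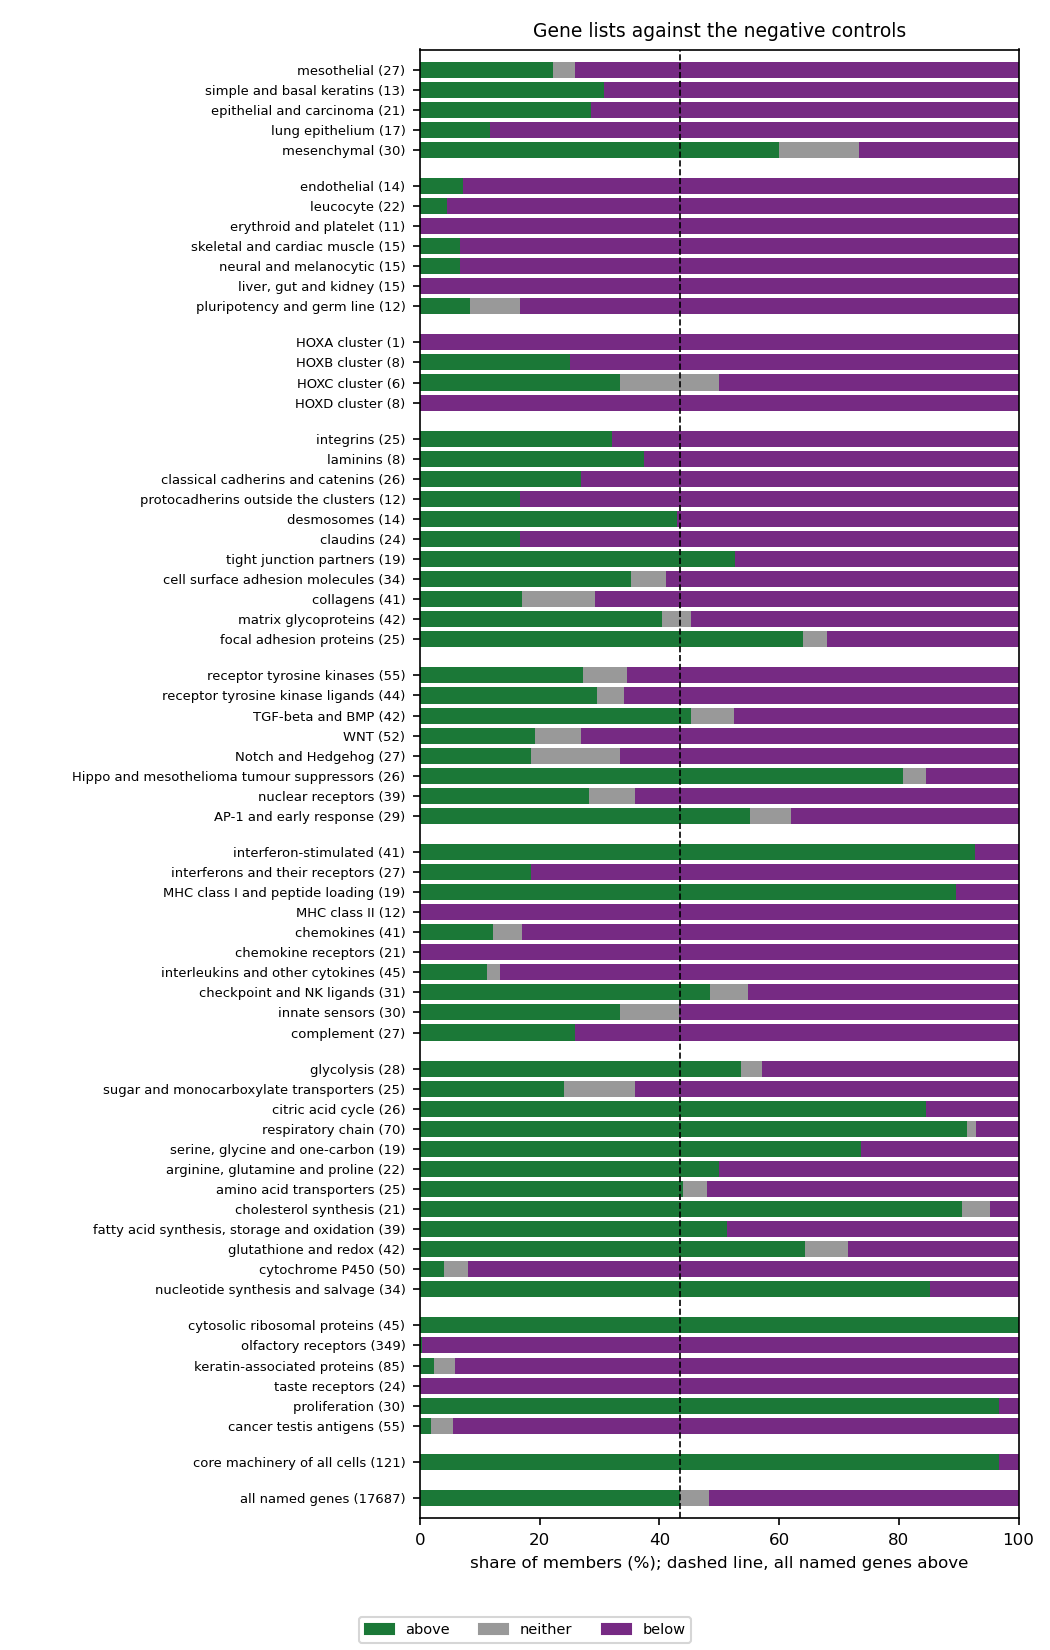
Share of the members of each gene list (x axis, percent) called above, neither or below the 95th percentile of the negative controls on 3 control arrays (y axis, lists with the number of genes on the array). The dashed line marks the 43.5% of all 17687 named genes called above; MHC class II, chemokine receptors and HOXD genes have 0% above, the respiratory chain 91.4%.

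Adhesion genes were above in 91 of 269 cases (33.8%), against 43.5% of all named genes. In most families a few members were above. Of 25 integrins 8 were above and 17 below. ITGB1, the beta chain that most matrix receptors share, read 15.70, 15.70 and 15.77, and its partners ITGA5 for fibronectin (13.05), ITGA3 and ITGA6 for laminin (13.01 and 12.39) and ITGA2 for collagen (11.75) were above. ITGAV (11.22) and ITGB5 (11.44) form a vitronectin receptor and were above too. ITGB4, the chain of hemidesmosomes, had a mean of 3.70 ± 0.45 (SD), and the leucocyte chains ITGAL (2.63) and ITGB2 (5.11) were below.

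The matrix ligands were similarly divided. Laminin chains LAMC1 (12.90), LAMB1 (12.50) and LAMB2 (8.67) were 3 above of 8, while the alpha chains LAMA1, LAMA2 and LAMA4 were below with means from 4.39 to 6.04. Of 41 collagens 7 were above, 29 below and 5 neither. The fibrillar chains COL5A2 (11.09), COL5A1 (9.79) and COL1A2 (9.31) were above, and COL1A1, the chain that pairs with COL1A2 in type I collagen, read 6.72, 5.89 and 6.38 and was below. COL4A1 of basement membrane had a mean of 3.55 and COL6A3 of 2.88, both below, while COL6A1 (8.59) and COL6A2 (8.22) were above. Chains of 1 heterotrimer thus fell on both sides of the percentile for type I and type VI.

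Other matrix proteins were above in 17 of 42 cases (40.5%, against 43.5% of all named genes). They included thrombospondin THBS1 (14.15), the microfibril protein MFAP5 (12.89), fibronectin FN1, which read 12.65, 12.60 and 12.61, and CCN1 (12.14), while the brain proteoglycan BCAN (2.89) and THBS2 (3.11), another thrombospondin, were below. Focal adhesion proteins, which tie integrins to actin, were above in 16 of 25 cases, among them CAV1 (15.54), ACTN4 (15.31), ACTN1 (14.75), VCL (14.06) and ILK (13.92). The blood cell members FERMT3 (3.87) and PARVG (4.05) were below.

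Genes of cell to cell junctions were above in part. Of 26 classical cadherins and catenins 7 were above: CTNNA1 (13.90), CTNNB1 (13.60), CDH2, CDH3, CDH18 (10.24), JUP (8.97) and CDH24 (8.59). Of 14 desmosomal genes 6 were above (42.9%, against 43.5% of all named genes), with DSG2 at 13.65, PERP at 12.61, PKP2 at 12.19 and DSP at 9.12. Every desmocollin, DSC1, DSC2 and DSC3, was below. DSC2, the desmocollin of simple epithelia, read 3.84, 3.87 and 2.88. Claudins were above in 4 of 24 cases, CLDN1 (12.59), CLDN12 (10.35), CLDN7 and CLDN4, and tight junction partners in 10 of 19, led by OCLN (13.59), NECTIN2 (13.03) and TJP1 (12.74). Of 12 protocadherins outside the gene clusters PCDH1 (9.31) and PCDH7 (8.79) were above.

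Surface adhesion molecules were above in 12 of 34 cases. The tetraspanins CD9 (15.41), CD151 (14.29) and CD81 (14.08), the syndecan SDC4 (14.72) and the hyaluronan receptor CD44 were above, and CD44 read 12.92, 12.89 and 12.86. ICAM1, a ligand of leucocyte integrins, read 5.55, 5.84 and 5.96, and VCAM1 had a mean of 4.42; both were below.

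Signalling genes were above in 110 of 314 cases (35.03%), against 43.5% of all named genes. Of 55 receptor tyrosine kinases 15 were above and 36 below. AXL, the receptor for GAS6, read 13.18, 13.51 and 13.47. MET, the receptor for hepatocyte growth factor, read 11.70, 11.59 and 11.68, and EGFR read 9.95, 10.09 and 10.36. The arrays of these receptors lay well over the percentile. DDR2, a collagen receptor (13.34), ROR1 (12.63), IGF1R (11.98) and RYK (11.83) were above, and KDR (2.75), ROS1 (2.98) and FLT3 (3.09) were the lowest.

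Of 44 ligands for these receptors 13 were above: FGF2 (13.43), NRG1 (13.17), VEGFC (12.16), VEGFA (11.99) and the macrophage factor CSF1 (11.48) led them. HGF, the ligand of MET, had a mean of 4.32 ± 0.22 (SD) and was below. GAS6 was below (6.75), whereas PROS1, a second ligand of its receptor family, was above (10.89). EGF (4.99), TGFA (4.07) and EREG (3.26) were below.

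Genes of the TGF-beta and BMP pathways were above in 19 of 42 cases (45.2%), close to the 43.5% of all named genes. Receptors TGFBR1 (10.11), TGFBR2 (12.06) and TGFBR3 (13.24), the ligand TGFB1 (11.29) and the transducers SMAD2 (12.04), SMAD3 (12.52), SMAD4 (12.01) and SMAD5 (13.70) were above. Among the targets ID1 (12.50) and ID3 (12.50) were above, while SMAD7 was neither (7.49). INHBA, the activin A subunit, had a mean of 4.18 and BMP6 of 3.52, both below.

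WNT and Notch genes were mostly below. In the WNT list 10 of 52 were above, led by the secreted proteins DKK3 (12.20) and DKK1 (10.41), the receptor LGR4 (11.15), LRP5 (9.47) and the ligand WNT5B (9.27). AXIN2, a common target of the canonical pathway, read 4.29, 4.56 and 4.44, below on each array. Of 27 Notch and Hedgehog genes 5 were above: NOTCH2 (12.16), RBPJ (9.81), PTCH1 (8.78), JAG2 (8.13) and GLI1 (7.90). The call of GLI1 was lost without array 1 (limma adjusted p = 0.0569, 0.00306 to 0.0569 over omissions). NOTCH1 (3.90), NOTCH3 (3.91) and the target HES1 (5.03) were below.

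The Hippo pathway restrains growth through the kinases STK3, STK4, LATS1 and LATS2, which inactivate the coactivators YAP1 and WWTR1, partners of TEAD factors. Together with other tumour suppressors of mesothelioma, 21 of 26 of these genes were above, 4 below and 1 neither. YAP1 read 10.61, 10.52 and 10.46, TEAD1 10.35, 10.25 and 10.38 and LATS2 9.16, 9.31 and 9.05, all above on each array. WWTR1 (9.81), LATS1 (11.77), STK3 (12.28), STK4 (9.55) and SAV1 (8.75) were above too. Of the targets, CCN1 was above (12.14) as was CCN2 (9.01).

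The 4 below were tumour suppressors. NF2, which encodes merlin, read 3.98, 4.64 and 4.36. CDKN2A, which encodes the cyclin-dependent kinase inhibitor p16 and ARF, read 2.98, 3.16 and 3.08, and its neighbour CDKN2B read 6.08, 5.94 and 5.78. RASSF1 had a mean of 5.19. All arrays of these genes lay under the percentile, and CDKN2A lay under the median of the negative controls on each. RB1, the target of the kinase that p16 restrains, was above (11.48), as were CDKN1A (11.29) and CDKN1B (9.77). BAP1 is not analysed here.

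MTAP, which lies next to CDKN2A and recycles methylthioadenosine, read 9.78, 9.14 and 9.56, above on each array. In the RefSeq order of the chromosome, the gene after CDKN2B is DMRTA1 (2.84), which was below, followed by ELAVL2, IZUMO3 and TUSC1, also below. The next 3, CAAP1 (10.39), PLAA (11.13) and IFT74 (9.12), were above. On the other side of MTAP lie interferon genes, all below where named, and then KLHL9 (8.05), above. These are transcript signals and measure no gene copy.

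Among nuclear receptors 11 of 39 were above, led by the glucocorticoid receptor NR3C1 (12.85), and the estrogen receptor ESR1 had a mean of 3.59. Early response genes were above in 16 of 29 cases. IER3 (15.23), KLF6 (14.63), DUSP1 (12.81), MYC (12.70) and FOSL1 were above, and FOSL1, an AP-1 subunit, read 12.50, 12.52 and 12.68. FOS, another AP-1 subunit, read 5.64, 5.64 and 5.20. DUSP6, a phosphatase that the ERK pathway induces, read 4.09, 3.88 and 3.89. FOS and DUSP6 were below on all arrays, while JUN had a mean of 10.69 ± 0.068 (SD), n = 3, above.

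Immune genes were above in 95 of 287 cases (33.1%), against 43.5% of all named genes. A sharp division lay between interferon-stimulated genes and interferons. Of 41 interferon-stimulated genes 38 (92.7%) were above and 3 below. OAS1, a synthase of oligoadenylates that switch on RNase L, read 13.04, 13.11 and 13.07. MX1, a GTPase that traps viral nucleocapsids, read 13.77, 13.81 and 13.86. IFI6, a small membrane protein, read 16.93, 16.87 and 16.80 at rank 25, and ISG15, the ubiquitin-like modifier, read 11.25, 11.50 and 11.60. Arrays differed by 0.35 for ISG15 and lay above the percentile throughout.

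IFITM2 (16.69), RSAD2 (15.11), IFITM1 (14.98), IFIT3 (14.68), OASL (14.19) and IFIT1 (13.88) belong to the same set. The IFITM genes are close paralogues, so their probes may share signal. The 3 below were MX2 (6.70), a sister of MX1, RTP4 (6.16), a receptor transport protein, and IRF7 (4.55), the factor that amplifies interferon synthesis. IRF9 (11.97), the DNA-binding part of the factor that type I interferon activates, was above.

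The interferon-stimulated response element that this factor binds contains pairs of GAAA letters spaced by a pair of bases. The letters GAAANNGAA, searched on both strands of the 300-base windows, were in 22 of 32 promoters of the list (68.8%) against 987 of 14250 (6.93%) of all named genes. Among the members called above 21 of 31 held it, and the only member below with a window, RTP4, held it too. The stretches around the matches are printed for 7 members because they show how the copies are arranged, with matches on either strand in capitals and 15 bases on each side. They lie in GRCh38.p14 at chr11:320872-320927 (minus strand), chr1:27672262-27672363 (minus), chr10:89392493-89392544 (plus), chr14:94110614-94110664 (plus), chr19:17405731-17405775 (minus), chr1:1013369-1013419 (plus) and chr3:187368328-187368390 (plus). A match is a description of letters and shows no binding.
IFITM3: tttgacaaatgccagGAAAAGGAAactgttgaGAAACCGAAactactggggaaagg
IFI6: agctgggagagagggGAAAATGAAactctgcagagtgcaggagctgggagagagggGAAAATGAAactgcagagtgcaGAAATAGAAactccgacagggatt
IFIT1: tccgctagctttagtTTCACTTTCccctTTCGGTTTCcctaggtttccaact
IFI27: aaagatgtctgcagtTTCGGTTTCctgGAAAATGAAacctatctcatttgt
BST2: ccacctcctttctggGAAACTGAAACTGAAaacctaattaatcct
ISG15: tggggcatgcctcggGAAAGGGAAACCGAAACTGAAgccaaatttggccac
RTP4: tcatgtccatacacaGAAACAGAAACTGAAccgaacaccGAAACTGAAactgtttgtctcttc

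Copies were 2 in the stretches of IFITM3, IFIT1, IFI27 and BST2 and 3 in those of IFI6, ISG15 and RTP4. In BST2 and ISG15 all copies overlap, and in RTP4 a pair of them does. IFI27, a relative of IFI6, had a mean of 13.73 and BST2, which tethers virus particles, of 11.50. RTP4, with 3 copies, read 5.82, 6.18 and 6.48, so a gene called below held the letters as well.

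Of the interferons themselves all 21 genes with a named cluster were below. IFNB1, the main interferon of non-immune cells, read 3.94, 4.76 and 4.86. IFNL1, a type III interferon, read 4.66, 5.14 and 5.09, and IFNG had a mean of 2.70. No array of these reached the percentile. The receptor chains IFNAR1 (9.67), IFNAR2 (11.68), IFNGR1 (10.19), IFNGR2 (13.21) and IL10RB (10.18) were above, and IFNLR1 (4.62), the specific chain of the type III receptor, was below. A small amount of interferon transcript could lie under the percentile.

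**Figure D4:**
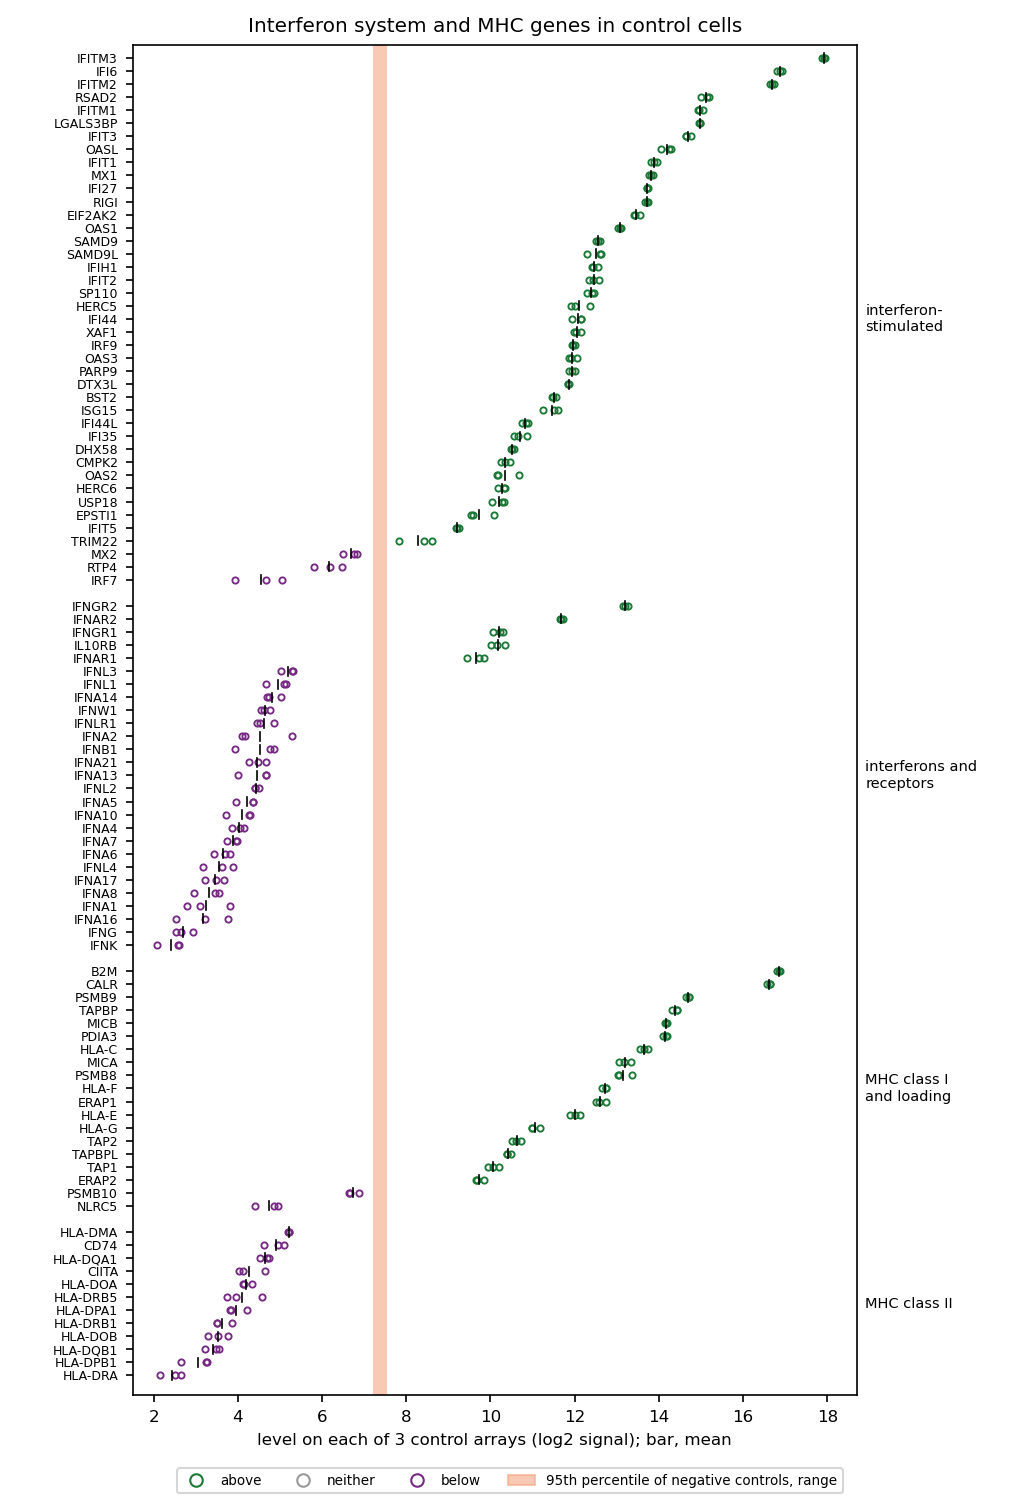
Level on each of 3 control arrays (x axis, log2 signal; circles, arrays; bars, means) for interferon-stimulated genes, interferons with receptors, MHC class I with peptide loading and MHC class II (y axis, genes). Of the interferon-stimulated genes 38 of 41 lie right of the shaded band of negative control percentiles, 7.22 to 7.54, and all 12 MHC class II genes lie left of it.

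Innate sensors and their adaptors, among them sensors of nucleic acid that lead to interferon, were above in part, 10 of 30. RIGI (13.71) and IFIH1 (12.46), sensors of double-stranded RNA, IFI16 (13.42), STING1 (13.27) and CGAS (9.90) of the DNA pathway, and the adaptor MYD88 (11.51) were above. TLR3 was neither (7.25), and TLR9 (2.86), TLR8 (2.90) and TLR2 (2.96) were below. IRF3 (4.96), a factor that RIGI, IFIH1 and the STING1 pathway activate, was below too.

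Genes for antigen presentation by MHC class I were above in nearly every case, and those for class II were below. Of 19 class I genes 17 were above, with B2M at 16.81, 16.84 and 16.87 and HLA-C at 13.55, 13.65 and 13.74. CALR (16.61), PSMB9 (14.69), TAPBP (14.39), TAP1 (10.07) and TAP2 (10.62), which trim, carry and load peptides, were above. NLRC5, the coactivator of class I genes, was below (4.74), as was PSMB10. All 12 class II genes were below: CIITA, their master regulator, read 4.64, 4.11 and 4.03, HLA-DRA read 2.65, 2.50 and 2.16, and CD74, the invariant chain, read 5.10, 4.96 and 4.62. HLA genes differ between people and between loci, so probe sets can read several loci or miss an allele.

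Secreted signals were few. Of 41 chemokines 5 were above: CCL5, which draws T cells, read 16.04, 16.13 and 16.04, CCL2, which draws monocytes, had a mean of 13.83 ± 0.044 (SD), and CXCL16 (9.25), CXCL1 (8.86) and CCL27 (7.77) followed. CCL27, a chemokine of skin, lost its call without array 1 (limma adjusted p = 0.573) and without array 3 (0.0729). CXCL10, which interferon induces in many cells, read 4.27, 4.38 and 4.42 and was below. All 21 chemokine receptors were below, with CCRL2 the highest at 6.10. Of 45 interleukins and other cytokines 5 were above, MIF (14.99), IL18 (11.60), IL32 (9.74), LIF (8.28) and IL6, and IL6 read 7.93, 8.03 and 7.95, close to the percentile.

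Ligands that T cells and natural killer cells read were above in 15 of 31 cases (48.4%, against 43.5% of all named genes). CD274, which encodes PD-L1, read 7.24, 6.82 and 7.24 with array 1 just over the percentile, and was neither (limma adjusted p = 0.0871). Without array 1, where the reference is higher, CD274 was called below (limma adjusted p = 0.0223, 0.0223 to 0.674 over omissions). CD70 read 14.18, 14.24 and 14.34, and the stress ligands MICB (14.17) and MICA (13.19), PVR (13.14), NECTIN2 and CD276 (11.65) were above. The costimulators CD86 (2.82) and CD80 (3.16) were below. CD47, the signal that restrains phagocytes, was above (11.52). Complement genes were above in 7 of 27 cases, and these included the membrane inhibitors CD55 (15.57), CD59 (15.36) and CD46 (11.87), with C3 at 10.01 and C9 at 2.49.

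Metabolic genes were above in 238 of 399 cases (59.6%), against 43.5% of all named genes. Glycolytic enzymes come in tissue forms, and these fell on both sides of the percentile. Of 28 glycolysis genes 15 were above and 12 below. HK1, the hexokinase of most tissues, read 11.64, 11.99 and 11.88, and HK2, the form of muscle and of many tumours, read 5.65, 4.92 and 5.31, below on every array. PFKP (16.36), PFKM (10.89) and PFKL (10.06), ALDOA (16.18), PGK1 (14.18), PGAM1 (14.82), ENO1, PKM (15.84), LDHA (16.74) and LDHB (15.45) were above. The testis and liver forms GAPDHS (3.61), PGK2 (4.08) and PKLR (4.39) were below.

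Transporters of sugars and monocarboxylates were above in 6 of 25 cases. SLC2A1 read 14.63, 14.71 and 14.60 and SLC2A3 read 14.28, 14.39 and 14.32. SLC2A14 read 15.01, 15.04 and 14.94, and as a near copy of SLC2A3 its probe set may read that gene. SLC2A4 of muscle and fat (6.22), SLC2A2 of liver (4.41) and SLC2A5 for fructose (4.40) were below. The lactate carriers SLC16A1 and SLC16A3 are not analysed here.

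**Figure D5:**
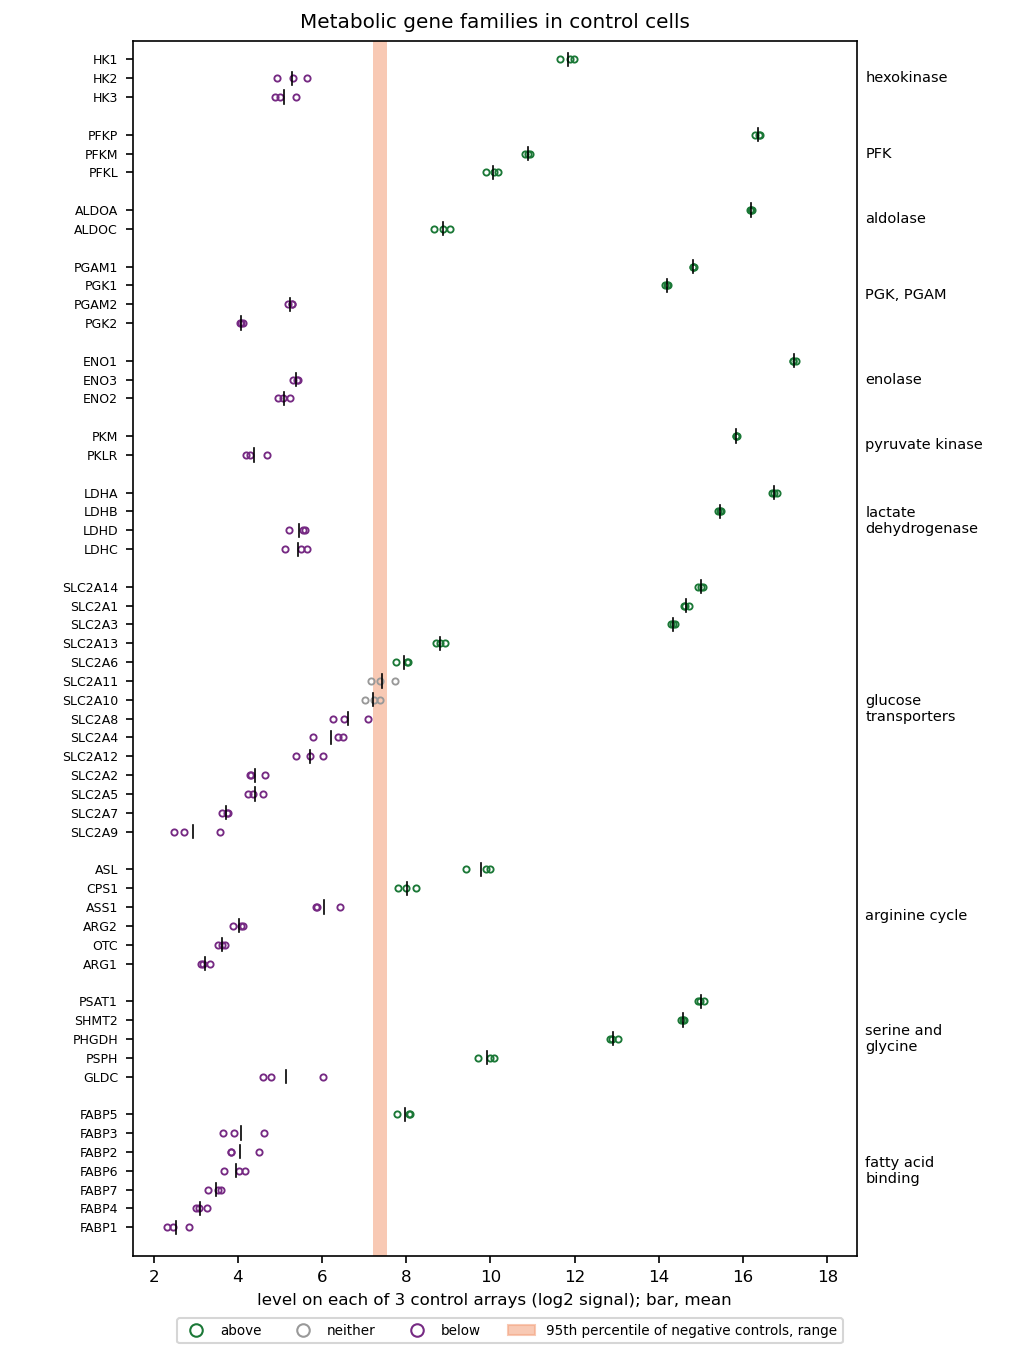
Level on each of 3 control arrays (x axis, log2 signal; circles, arrays; bars, means) for tissue forms and family members in glycolysis, glucose transport, arginine, serine and fatty acid metabolism (y axis, genes). For each glycolytic step shown at least 1 form lies right of the shaded band of negative control percentiles, 7.22 to 7.54; HK2, ASS1 and every fatty acid binding protein but FABP5 lie left of it.

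Mitochondrial genes were above in most cases. In the citric acid cycle 22 of 26 were above, led by CS (15.25), MDH2 (15.22), IDH3G (14.77) and IDH3A (13.85), and PC, pyruvate carboxylase, was below (5.33). In the respiratory chain 64 of 70 were above (91.4%), 5 below and 1 neither. ATP5F1B (16.21), ATP5PF (16.20) and COX8A (16.16) led it, and all 5 below were tissue forms of cytochrome oxidase subunits: COX7A1 (5.34), COX7B2 (5.05), COX8C (4.58), COX4I2 (4.38) and COX6B2 (4.14). Their common counterparts COX8A, COX4I1 (11.17), COX6B1 (13.95) and COX7B (14.49) were above, as was COX6A2 (7.97), a muscle form.

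Genes of arginine and glutamine metabolism were divided. ASS1, the enzyme that joins citrulline and aspartate in arginine synthesis, read 5.87, 5.86 and 6.43, below on each array (mean 6.05 ± 0.32 (SD), n = 3). ASL, the next enzyme, read 9.42, 9.995 and 9.89 and was above. ARG1 (3.21), ARG2 (4.03), OTC (3.62) and the nitric oxide synthases NOS1, NOS2 and NOS3 were below. The arginine carrier SLC7A1 was above (12.82). GLUL, glutamine synthetase, had a mean of 3.51 ± 0.31 (SD) and was below, while ASNS (12.65), GOT1 (12.88), GOT2 (13.72), BCAT1 (12.76) and PYCR1 (12.61) were above.

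Genes of serine synthesis were above at each step, PHGDH with 12.89, 12.83 and 13.04, PSAT1 with 14.93, 14.99 and 15.06 and PSPH with a mean of 9.92 ± 0.20 (SD), n = 3. The folate enzymes SHMT2 (14.56), MTHFD2 (14.33) and MTHFD1 (12.91) were above, and GLDC of glycine cleavage (5.13) and MAT1A of liver (2.85) were below. In all, 14 of 19 genes of this list were above. Amino acid carriers were above in 11 of 25 cases (44%, against 43.5% of all named genes). They included SLC38A2 (15.89), SLC3A2 (14.53), SLC38A1 (14.44), SLC7A11 (14.16), the cystine carrier, and SLC7A5 (12.48).

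Most genes of sterol synthesis were above, and those of fatty acid metabolism were divided. Of 21 cholesterol genes 19 were above (90.5%), from MSMO1 (16.21) and FDPS (14.34) to MVD (8.94), with HMGCS1 at 12.75 ± 0.20 (SD). Of 39 fatty acid genes 20 were above, among them SCD (16.16), ELOVL5 (15.95), ACLY (14.02), HADHA (14.06) and FASN, which read 12.61, 12.63 and 12.56. CD36 (5.11), LPL (5.26) and PLIN1 (3.20), which take up or store fat, were below, and of 7 fatty acid binding proteins FABP5 (7.98) was above.

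Redox genes were above in 27 of 42 cases. The thioredoxin system gave TXN (15.56) and TXNRD1 (15.30). GPX4 (15.12), PRDX1 (14.99) and NQO1 (13.24) were above with NFE2L2 (13.10), the factor that drives several of them. GSTM1, a glutathione transferase, read 11.37, 11.39 and 11.38, and its family members are near copies that its probe set may read. Cytochrome P450 genes were above in 2 of 50 cases, the sterol enzyme CYP51A1 (12.36) and CYP1B1 (8.58), while CYP3A4 of liver had 2.86. Nucleotide synthesis and salvage genes were above in 29 of 34 cases, among them PAICS (14.35), TYMS (13.74), RRM1 (13.68), TK1 (13.37) and DPYD (13.16), and the concentrative nucleoside carrier SLC28A1 was below (2.68).

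Cancer testis antigens, which tumours can switch on outside the germ line, were below in 52 of 55 cases. BRDT, a bromodomain protein of the testis, read 9.88, 9.84 and 9.77 and was the only one above. PRAME (7.67) and MAGEA8 (7.15) were neither, and MAGEA8 was called below without array 1 (limma adjusted p = 0.00806).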

How the data were processed

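RNA from ACC-MESO-1 cells was measured on Clariom S arrays, 3 of them with a control shRNA, and 100 ng of total RNA was amplified and labelled per array, per the labels. The authors deposited log2 signals, summarised per transcript cluster by RMA in Affymetrix Expression Console 1.4, per the submitters' processing notes. RMA corrects background, makes the arrays' distributions equal and summarises probes, so differences in total RNA are removed. RMA works in base 2 unless told otherwise, and that base is assumed. Of 24351 probe sets, 2903 were controls, 612 of them negative controls, and 3739 clusters without a symbol stayed in the adjustment of p-values and out of the lists. All 17709 gene IDs matched RefSeq (GRCh38.p14). Of 20 genes measured by more than 1 cluster, the brightest cluster was used, and for 3 of these the clusters differ in call.

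The test was limma 3.58.1 in R 4.3.3: an intercept fitted to each value minus the 95th percentile of that array's negative controls, with eBayes without trend, two-sided, adjusted over 21448 clusters, threshold 0.05. The percentile is treated as known, and its shift between arrays enters the spread. The fit was tested on simulated data. Summaries used Python 3.11.15 with pandas 2.3.3, numpy 2.4.6 and matplotlib 3.10.9.

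The members and the 64 gene lists were chosen with earlier results of these data known, and core machinery was added after the levels were seen. Named genes were the 25 of highest mean, core members of each list, up to 5 of highest and 3 of lowest mean per list, and the 10 of widest range between arrays. A further 69 genes in the text lie outside this rule and were chosen after their values were seen. The transcript of LSD1 is not analysed here. Alternatives were other percentiles of the negative controls, a second quantile normalization, a filter on low signal, other priors, a spread pooled over the 9 arrays, calls without a model and omission of each array.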

Additional observations from a re-analysis of the deposited data

How the results depend on the processing

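The reference level decided most counts. Against the 99th percentile of the negative controls 2538 genes were above, and in the themes 15 lineage, 1 other cell type, 45 adhesion, 35 signalling, 60 immune and 156 metabolic genes. Against their median 13053 genes were above and 2530 below, and above were 87 lineage, 49 other cell type, 177 adhesion, 228 signalling, 184 immune and 206 reference genes. Against the 90th percentile 10 markers of other cell types were above. When the clusters of lowest mean, 1 in 3, were left out, 3573 genes were below, because the clusters left out were no longer tested. Without 1 array the count above lay between 7545 and 7681 and the count below between 8927 and 9217, and these counts stayed within 1.5 times the reported ones under a second quantile normalization, another prior, a pooled spread and calls without a model. Negative controls were not matched to clusters by base composition, so the background of a single probe set is not known. Each value was set against the percentile of its own array, so the comparison was made within arrays. Groups of arrays were not compared, and replicate numbers do not recur between them.

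Genes named above that changed side are given with the mean difference from the other reference (log2). Relative to the median of the negative controls, these genes called below lay above: WT1 3.01, KRT19 2.83, GAS6 2.76, PSMB10 2.73, MX2 2.70, GATA1 2.67, SPI1 2.55, EIF4E3 2.43, SOX10 2.38, COL1A1 2.34, UPK3B 2.27, SLC2A4 2.23, RTP4 2.17, CALB2 2.11, CCRL2 2.11, TUSC1 2.06, ASS1 2.06, LAMA4 2.05, CDKN2B 1.94, HOXD12 1.90, ICAM1 1.79, CCND2 1.78, CD14 1.67, CDX2 1.59, BNC1 1.54, TAGLN 1.53, DES 1.52, FOS 1.5, ZEB2 1.43, VWF 1.41, SYP 1.35, COX7A1 1.35, PC 1.33, HK2 1.30, LPL 1.26, LAMA2 1.24, RASSF1 1.20, ALB 1.14, GLDC 1.14, ITGB2 1.12, CD36 1.12, COX7B2 1.06, HES1 1.04, NKX2-1 1.02, EGF 1.00, IRF3 0.97, IFNL1 0.97, CD3E 0.95, CD74 0.90, GRHL2 0.87, CDH1 0.84, PSMB11 0.77, NLRC5 0.74, ELAVL2 0.72, HBB 0.65, PAX8 0.64, IFNLR1 0.62, COX8C 0.59, IRF7 0.56, IFNB1 0.53, SOX2 0.49, DCN 0.45, AXIN2 0.43, GFAP 0.42, SLC2A2 0.42, SLC2A5 0.41, LAMA1 0.40, PKLR 0.40, COX4I2 0.38, FOXC2 0.36, CXCL10 0.36, HGF 0.33. Relative to the 90th percentile, these genes called below lay above: WT1 0.66, KRT19 0.48, GAS6 0.41, PSMB10 0.39, MX2 0.36, GATA1 0.32. The 99th percentile of the negative controls was 9.22, 11.17 and 10.33 on arrays 1, 2 and 3. Differences from it are means over arrays with unlike references, so a gene need not lie below it on each array. Relative to the 99th percentile, these genes called above lay below: TWIST2 -1.21, CCN2 -1.24, JUP -1.28, MVD -1.31, CXCL1 -1.38, KRT7 -1.41, PCDH7 -1.46, PTCH1 -1.46, SAV1 -1.50, LAMB2 -1.57, CDH24 -1.65, COL6A1 -1.66, CYP1B1 -1.66, CEACAM5 -1.69, KRT16 -1.74, TBX18 -1.78, CEACAM6 -1.79, OR2W3 -1.84, LAMP3 -1.87, LIF -1.96, COL6A2 -2.02, HOXC13 -2.05, JAG2 -2.12, SNAI1 -2.12, KLHL9 -2.19, FABP5 -2.27, COX6A2 -2.27, IL6 -2.27, CSF1R -2.28, GLI1 -2.34, CCL27 -2.47, ABCA3 -2.47.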

Other observations

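Among the 10 genes above on all 3 arrays with the widest range between them were C19orf84, which read 9.31, 9.76 and 8.63, SLF2 with 8.15, 9.26 and 8.80 and HYCC2 with 9.09, 8.35 and 9.41. The cyclin gene CCNE1 read 7.83, 8.35 and 8.85, and the kinase gene MAP2K3 read 7.40, 7.97 and 8.39. Over the 10 genes the range between the highest and the lowest array lay between 0.94 and 1.13 on the log2 scale, and no array was the extreme one in all of them.

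By the kind of gene in RefSeq, 7618 of 17245 protein-coding genes (44.2%) were above, 37 of 306 long non-coding RNA genes (12.1%), 32 of 117 transcribed pseudogenes (27.4%) and 2 of 11 microRNA genes. Among the 3739 clusters without a symbol 1011 (27.0%) were above, and the highest of them had a mean of 18.1.

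Single negative controls gave strong signals. The highest reached 11.6, 13.5 and 13.8 on arrays 1, 2 and 3. Of 612 negative controls 8 exceeded the 95th percentile on all 3 arrays and 54 on at least 1, while 0 exceeded a level of 10 on all 3 and 17 did so on at least 1.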
